A study of Mus musculus with 9 samples.

Results

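The 10 genes described here are those by which a fat cell rebuilds triglyceride: Gk, Pck1, Gpd1, Gpd2, Aqp7, Gpam, Agpat2, Lpin1, Dgat1 and Dgat2. They were picked by symbol as a pathway, and no measured value enters the rule, from the 16937 genes that the deposited tables list for mouse brown adipose tissue (BAT), and all 10 were listed in each of the 3 tables. BAT came from adult male and female mice on the C57Bl/6J background in 3 groups of 3 libraries: wild-type mice held at 23 °C (WT RT), wild-type mice held at 4 °C for 8 h (WT Cold), and whole-body Gcn2-/- mice held at 4 °C for 8 h (GCN2 KO Cold). All were housed singly before the exposure. No group of GCN2 KO mice at 23 °C was analysed here, so an effect of the genotype at room temperature cannot be told apart from one in the cold. Sex is not given per library and was not part of any test.

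Brown adipocytes burn fatty acids released from stored triglyceride, and in the cold they break down and remake that store at the same time. Each new triglyceride needs a glycerol 3-phosphate backbone. White fat has little glycerol kinase and makes the backbone from glucose or, through phosphoenolpyruvate carboxykinase, from small carbon compounds (glyceroneogenesis), whereas brown fat is known for a glycerol kinase that can reuse glycerol. Acyl chains are then added in order by glycerol-3-phosphate acyltransferase, lysophosphatidate acyltransferase and, after a phosphatase step, diacylglycerol acyltransferase.

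The libraries held 27058799 to 30768064 reads on the listed genes, and each of the 10 genes had between 2784 reads (Aqp7) and 245369 reads (Gpd1) in a library, so counting error was small beside the spread between mice. Levels over all 9 libraries are given in CPM, the usual depth-scaled read count of a gene, here relative to the reads on listed genes. Fold changes are limma log2 fold changes on log2(normalised count + 1), fitted within the table of each comparison, with p-values adjusted over all genes of that table (Benjamini-Hochberg). The tables were scaled separately by the authors' size factors. Scaling by CPM instead would move the median log2 fold change of all genes by -0.08 for WT Cold vs WT RT, by -0.12 between the cold groups and by -0.20 for GCN2 KO Cold vs WT RT. The letters A, B and C stand for the 3 libraries of each group. Library codes start with other letters in WT RT than in the cold groups, so any difference in preparation and the cold cannot be told apart. Eif2ak4, which encodes GCN2, did not read lower in libraries with the label GCN2 KO Cold (346.95 to 371.3 normalised counts) than in WT Cold (170.7 to 230.9), and a count over the whole gene does not show which exons carry the reads, so it gave no check of the genotype. "GCN2 KO Cold" below means the libraries so labelled. The title of 1 of these 3 samples reads GCN2 KO but also WT and leaves out the cold, and it was grouped by its genotype field, GCN2 KO, its temperature field being 4 °C as for the others. No source used here ties a library code to a single sample, so which of the 3 libraries it is was not known, and each was left out in turn.

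All 10 brown adipocyte markers were present, and 4 were called higher and 2 lower in WT Cold vs WT RT. Their summed level, led by Fabp4 and Ucp1, ranged over libraries from 20324 to 22065 CPM in WT RT, from 26023 to 27840 CPM in WT Cold and from 30572 to 31352 CPM in GCN2 KO Cold. Ucp1 read 3592 to 5273 CPM in WT RT and 7970 to 8995 CPM in WT Cold, while Adrb3 read 259.8 to 341.1 and 116.8 to 135.2 CPM. The sum is therefore no measure of brown adipocyte content. Markers of other cells were also read. The 12 skeletal muscle markers summed to 2472 to 2989 CPM in WT RT, 2368 to 3952 in WT Cold and 327 to 1327 in GCN2 KO Cold, and the 5 macrophage markers to 156 to 244, 67.7 to 104 and 51.2 to 74.8 CPM. The 4 endothelial markers summed to 478 to 531, 562 to 690.3 and 449.7 to 550.02 CPM, and the 3 red blood cell markers to 213.5 to 278, 461 to 1860.3 and 888 to 1705 CPM. The 3 hepatocyte markers, led by Alb, summed to between 1033 and 4685 CPM in the libraries, with both ends of that range in WT Cold, and neither kidney tubule marker was listed. The part of these cells in the results below was not tested, and in bulk tissue fewer cells of a type and less RNA per cell cannot be told apart.

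In WT Cold, the glycerol kinase transcript was the one that moved most. Gk rose 5.6-fold over WT RT, Dgat1 rose 1.89-fold and Gpam rose 1.5-fold, while Agpat2, Dgat2 and Gpd2 fell by 1.05, 0.76 and 0.42 on the log2 scale. Pck1, Gpd1, Aqp7 and Lpin1 did not pass the test. Thus 6 of the 10 genes were called at an adjusted p under 0.05 in limma, against 27.7% of the 16679 genes tested. That share includes genes with few reads, which the 10 are not. Among the 13061 genes with a mean value of at least 50, 4516 were called, and again 6 of the 10. The 10 were proposed with earlier results of these data known. The 3 that rose stand beside 13.6% of all genes called higher, and the 3 that fell beside 14.1% called lower. With an absolute log2 fold change over 1 required as well, Gk and Agpat2 remained, 2 of 10 against 8.14% of all genes, but Agpat2 was at -0.96 without WT RT B or WT RT C and at -0.98 without WT Cold C. The median log2 fold change of the 10 genes was 0.09 against 0.00 for all genes tested, and the median absolute value 0.52 against 0.33. DESeq2 and edgeR each called 6 of the 10, against 29.6% and 27.6% of all genes. Scaled by CPM, the calls over all genes split into 1570 higher and 2905 lower instead of 2268 and 2356, and none of the 10 changed direction.

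**Figure D1:**
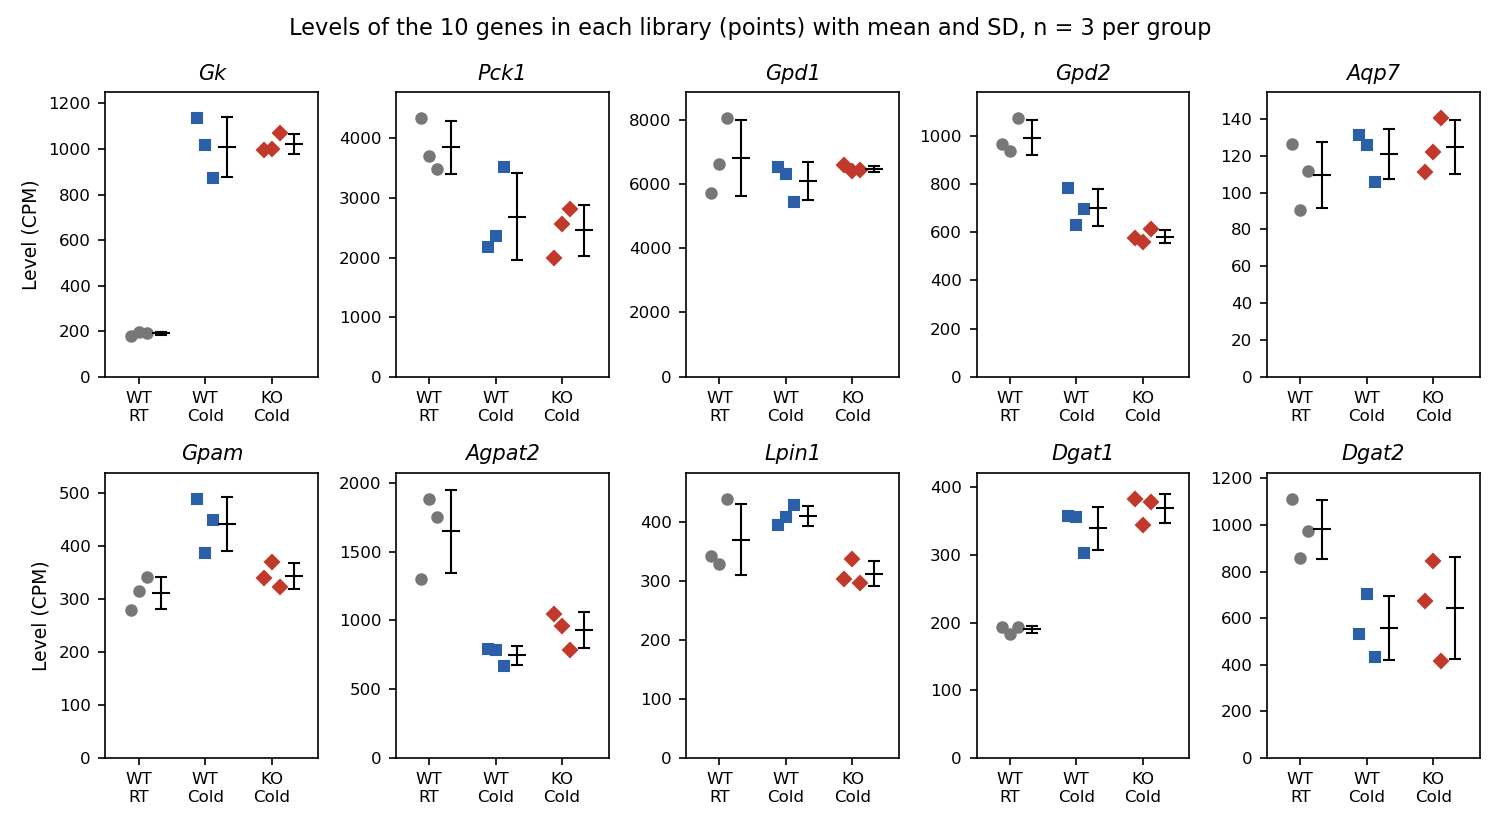
Level in CPM (depth-scaled reads, axis from 0) of each of the 10 genes in the WT RT, WT Cold and GCN2 KO Cold libraries, with 1 point per library and the mean with SD beside them (n = 3 per group, "KO Cold" being GCN2 KO Cold). The Gk and Dgat1 points of both cold groups lie above all WT RT points, and the Agpat2, Gpd2 and Dgat2 points of both cold groups lie below all WT RT points.

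Glycerol entry and phosphorylation come first. Gk encodes glycerol kinase, which turns glycerol into glycerol 3-phosphate, and lies on the minus strand at chrX:85701937-85776819 (GRCm38). Its level was 180.4, 197 and 192 CPM in WT RT libraries A, B and C, 1136, 1018 and 874 CPM in WT Cold and 995, 1000.0 and 1071 CPM in GCN2 KO Cold. The lowest cold library, WT Cold C, stood more than 4 times above the highest WT RT library, and the cold groups overlapped each other. For WT Cold vs WT RT the log2 fold change was 2.49 (SE 0.10, 95% interval 2.26 to 2.71, limma adjusted p = 2.12e-05). Leaving out any of the 6 libraries in turn kept it between 2.41 and 2.57.

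Aqp7 encodes the aquaglyceroporin of fat cells, a channel that lets glycerol cross the membrane (chr4:41033074-41048139, minus strand). Aqp7 read 126, 90.5 and 112 CPM in WT RT, 131, 126 and 106 CPM in WT Cold and 111, 122 and 141 CPM in GCN2 KO Cold. In CPM the ranges of the groups overlapped, while in normalised counts those of GCN2 KO Cold and WT RT did not. The interval of the WT Cold vs WT RT log2 fold change ran from -0.08 to 0.55 (limma adjusted p = 0.236).

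The other supply of backbone is de novo. Pck1 encodes the cytosolic phosphoenolpyruvate carboxykinase of glyceroneogenesis and gluconeogenesis (chr2:173153048-173159273, plus strand). Pck1 stood at 4345, 3709.8 and 3489.6 CPM in WT RT, at 2174, 2368 and 3518 CPM in WT Cold and at 1987, 2568 and 2813 CPM in GCN2 KO Cold. WT Cold C lay inside the WT RT range, and the other cold libraries lay below it. The WT Cold vs WT RT log2 fold change was -0.46 (95% interval -0.91 to -0.01, limma adjusted p = 0.115), and without WT Cold C it was -0.69 (limma adjusted p = 0.00565). The hepatocyte markers Alb, Apoa1 and Ttr, from another tissue in which Pck1 is abundant, summed to 1033, 1785 and 4685 CPM in WT Cold A, B and C and to 1556, 3067 and 3426 CPM in GCN2 KO Cold A, B and C. In each cold group the library order of these markers was that of Pck1, whereas in WT RT they summed to 2906, 2193 and 2387 CPM. Their part in the Pck1 values was not tested.

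Gpd1 encodes the cytosolic glycerol 3-phosphate dehydrogenase, which makes glycerol 3-phosphate from the glycolytic intermediate dihydroxyacetone phosphate (chr15:99717515-99725005, plus strand). Its level was 5711, 6629.7 and 8054 CPM in WT RT, 6539, 6313 and 5424 CPM in WT Cold and 6576, 6388 and 6428 CPM in GCN2 KO Cold. All groups overlapped in CPM. The WT Cold vs WT RT log2 fold change was -0.06 (95% interval -0.44 to 0.31, limma adjusted p = 0.795), and it was 0.10 without WT RT C. Of its exon bases, 13.0% are shared with Gm16537 on the opposite strand, and the library kit does not mark strand, so reads there cannot be assigned with certainty.

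Gpd2 encodes the mitochondrial glycerol 3-phosphate dehydrogenase, which oxidises glycerol 3-phosphate and passes electrons to the respiratory chain (chr2:57237635-57370719, plus strand). It measured 965, 938 and 1075 CPM in WT RT, 783, 630.0 and 696 CPM in WT Cold and 574, 559.9 and 612 CPM in GCN2 KO Cold. Every cold library was below every WT RT library. The log2 fold change for WT Cold vs WT RT was -0.42 (SE 0.11, limma adjusted p = 0.0267), and the adjusted p rose to 0.0581, 0.0706 or 0.095 without WT RT A, WT RT C or WT Cold B. A share of 7.44% of its exon bases overlaps A930012O16Rik on the opposite strand.

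The acyltransferase steps did not move in 1 direction. Gpam encodes the mitochondrial glycerol-3-phosphate acyltransferase GPAT1, which adds the first acyl chain (chr19:55067268-55127238, minus strand). In CPM it was 280.2, 315 and 341 in WT RT, 489, 388 and 449 in WT Cold and 339, 369 and 322 in GCN2 KO Cold. All WT Cold libraries exceeded all WT RT libraries (log2 fold change 0.58, SE 0.12, limma adjusted p = 0.00996).

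Agpat2 encodes the lysophosphatidate acyltransferase that adds the second chain, and its loss causes congenital lipodystrophy (chr2:26593057-26604417, minus strand). Agpat2 had 1304, 1883 and 1752 CPM in WT RT, 789, 783 and 664 CPM in WT Cold and 1045, 961 and 787 CPM in GCN2 KO Cold. The lowest WT RT library was above the highest cold library. In WT Cold it was 2.06-fold lower than in WT RT (log2 fold change -1.05, SE 0.15, 95% interval -1.39 to -0.71, limma adjusted p = 0.00235), and every fit with 1 library left out kept the call. Agpat2 shares 64 of its exon bases with Egfl7 on the opposite strand.

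Lpin1 encodes lipin 1, a phosphatidate phosphatase that yields diacylglycerol and also acts with nuclear receptors (chr12:16535669-16610966, minus strand). Its level was 343, 329 and 439.8 CPM in WT RT, 396, 408 and 429 CPM in WT Cold and 303, 338 and 298 CPM in GCN2 KO Cold. In CPM WT RT C exceeded all other libraries, whereas in the normalised counts of WT Cold vs WT RT it (13184) lay below WT Cold C (13375). The WT Cold vs WT RT log2 fold change was 0.24 (95% interval -0.07 to 0.56, limma adjusted p = 0.221). Without WT RT C it was 0.41 (limma adjusted p = 0.0215).

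Dgat1 and Dgat2 encode unrelated enzymes that catalyse the last step. DGAT1 is known for re-esterifying fatty acids released by lipolysis, and DGAT2 for joining newly made fatty acids to new backbones. Dgat1 (chr15:76502015-76511953, minus strand) read 193, 184 and 193 CPM in WT RT, 358, 357 and 303 CPM in WT Cold and 383, 345 and 379 CPM in GCN2 KO Cold. Dgat2 (chr7:99153658-99182719, minus strand) read 1112, 859 and 976 CPM in WT RT, 530.2, 705 and 434 CPM in WT Cold and 672, 847 and 414 CPM in GCN2 KO Cold. Each WT Cold library was above the WT RT range for Dgat1 and below it for Dgat2. In WT Cold vs WT RT the log2 fold changes were 0.92 for Dgat1 (SE 0.08, limma adjusted p = 0.000479) and -0.76 for Dgat2 (SE 0.17, limma adjusted p = 0.0162). The Dgat2 call was lost without WT RT A, WT RT C or WT Cold A (limma adjusted p = 0.0596, 0.0534 and 0.0527), and the Dgat1 call in none of the 6 such fits.

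Per kilobase of exon, the ratio of Dgat1 to Dgat2 reads was 0.175, 0.216 and 0.199 in WT RT, 0.681, 0.51 and 0.705 in WT Cold and 0.575, 0.411 and 0.924 in GCN2 KO Cold. Dgat2 was thus the more abundant transcript in all 9 libraries, and the ratio in the lowest cold library was above that of the highest WT RT library. The ratio of Gk to Gpd1 was 0.0121, 0.0114 and 0.00912 in WT RT, 0.0665, 0.0616 and 0.0616 in WT Cold and 0.0579, 0.0599 and 0.0637 in GCN2 KO Cold. Gpd1 stayed far more abundant than Gk in every library. These ratios do not depend on how libraries are scaled, they were chosen with the levels in view, and no test was made of them.

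**Figure D2:**
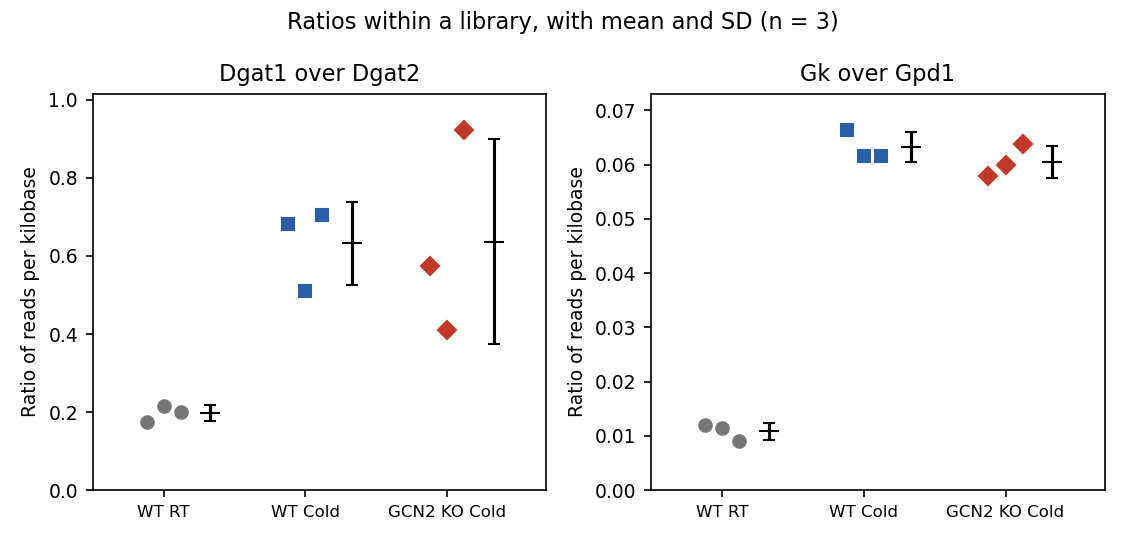
Ratio of reads per kilobase of exon of Dgat1 to Dgat2 (left) and of Gk to Gpd1 (right) within each library, by group, with 1 point per library and the mean with SD (n = 3), axes from 0. WT RT libraries lie between 0.175 and 0.216 (left) and between 0.00912 and 0.0121 (right), below all cold libraries.

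Promoter sequences are shown for the genes with the greatest rise and the greatest fall in WT Cold, Gk and Agpat2, and for Gpam, which rose with Gk. The 250 bases before the start site (RefSeq, GRCm38.p6) were searched on both strands for the cAMP response element TGACGTCA, its core TGACG (which the full element contains), the nuclear receptor half-site AGGTCA and the sterol element TCACNCCAC. Of the 10 genes, 7 had an entry, and Gpd1, Dgat1 and Dgat2 did not. Sequences are given for Gk, for both start sites of Gpam and for Agpat2, on the strand of the gene, 5′ to 3′, with matches in capitals.
Gk, chrX:85776820-85777069, minus strand: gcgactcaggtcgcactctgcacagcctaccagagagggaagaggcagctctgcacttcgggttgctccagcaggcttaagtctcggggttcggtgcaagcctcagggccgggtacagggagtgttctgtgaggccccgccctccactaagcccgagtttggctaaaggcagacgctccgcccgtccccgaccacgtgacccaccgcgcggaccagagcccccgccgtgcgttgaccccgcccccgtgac
Gpam start site 1, chr19:55127239-55127488, minus strand: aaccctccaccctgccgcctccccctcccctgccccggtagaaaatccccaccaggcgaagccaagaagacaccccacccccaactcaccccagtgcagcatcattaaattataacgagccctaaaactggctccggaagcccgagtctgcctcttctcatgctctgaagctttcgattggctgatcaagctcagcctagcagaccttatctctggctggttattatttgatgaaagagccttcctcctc
Gpam start site 2, chr19:55099478-55099727, minus strand: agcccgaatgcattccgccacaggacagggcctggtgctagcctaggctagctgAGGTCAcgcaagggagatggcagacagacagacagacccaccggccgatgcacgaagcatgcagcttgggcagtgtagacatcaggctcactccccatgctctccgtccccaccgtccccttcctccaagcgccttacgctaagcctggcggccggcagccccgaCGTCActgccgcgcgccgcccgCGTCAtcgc
Agpat2, chr2:26604418-26604667, minus strand: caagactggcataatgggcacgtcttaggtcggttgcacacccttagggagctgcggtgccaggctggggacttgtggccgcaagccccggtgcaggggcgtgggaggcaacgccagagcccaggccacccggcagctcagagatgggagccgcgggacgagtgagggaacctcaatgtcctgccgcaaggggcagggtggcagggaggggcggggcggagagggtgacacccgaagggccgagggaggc
In the Gk and Agpat2 windows and at Gpam start site 1, none of the 4 motifs was found, nor in the windows of both start sites of Gpd2, which are not printed because they run 43 and 85 bases into its own annotated exons. Start site 2 of Gpam held AGGTCA from 196 to 191 bases upstream and the reverse complement of TGACG from 31 to 27 and from 9 to 5 bases upstream. The 7 genes have 10 windows. TGACG was found in 2 of these (Gpam start site 2 and Pck1, in Pck1 from 90 to 86 bases upstream), AGGTCA in 4 (Gpam start site 2, Lpin1 and both start sites of Aqp7), and TGACGTCA and TCACNCCAC in 0. The Aqp7 windows share bases, and that of its start site 2 runs 177 bases into its own annotated exons. Among all 32851 windows of the table, TGACG occurred in 17.8%, AGGTCA in 14%, TGACGTCA in 1.55% and TCACNCCAC in 1.05%. A match describes letters and shows no binding, and Gk, with the greatest rise, and Agpat2, with the greatest fall, had no match in this window.

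Genotype was compared within the cold. Between GCN2 KO Cold and WT Cold, 0 of the 10 genes were called by limma, against 0.405% of the 16312 genes tested (0.178% higher, 0.227% lower, and 0.257% with an absolute log2 fold change over 1 as well). At an unadjusted p under 0.05 there were 4 of 10 (Gpam, Agpat2, Lpin1 and Dgat1), against 15.3% of all genes. DESeq2 called 1 (Agpat2), against 3.29% of all genes, and edgeR 0, against 0.27%. The log2 fold changes ran from -0.28 (Lpin1) to 0.43 (Agpat2), the 95% intervals from -0.50 to 0.93, and the lowest limma adjusted p was 0.166. Their median was 0.15 against -0.00 for all genes tested. For Gk the log2 fold change was 0.14 (95% interval -0.09 to 0.37, limma adjusted p = 0.551), an interval that leaves out a difference as large as its rise in the cold. A missed threshold does not show that the genotypes were alike, and the intervals of Dgat2 (-0.33 to 0.93) and Pck1 (-0.50 to 0.51) were the widest.

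In the normalised counts of that table, the groups of 4 of the 10 genes did not overlap (Gpd1, Agpat2, Lpin1 and Dgat1), against 22% of all genes. Agpat2 had 30468, 28195 and 23291 normalised counts in libraries with the label GCN2 KO Cold and 20847, 21229 and 18399 in WT Cold (log2 fold change 0.43, SE 0.12, limma adjusted p = 0.166, DESeq2 adjusted p = 0.0395, edgeR adjusted p = 0.155). Lpin1 had 8838, 9909.8 and 8805 against 10463, 11075 and 11881 (log2 fold change -0.28, SE 0.08, limma adjusted p = 0.187). Dgat1 had 11168, 10119.9 and 11215 against 9455, 9678 and 8395 (log2 fold change 0.24, 95% interval 0.04 to 0.44, limma adjusted p = 0.241). In CPM the groups of 3 genes did not overlap (Gpd2, Gpam and Lpin1), against 25.3% of all genes, so Lpin1 alone of the 10 was separate on both scales. Pck1 had a log2 fold change of 0.01 (limma adjusted p = 0.994) that was -0.11 with CPM. Over all genes, CPM turned the split of calls from 29 higher and 37 lower into 11 and 52. The muscle markers had a median log2 fold change of -2.01 over the 11 listed in this table, with 1 called lower. Gpd1, Gpd2 and Lpin1, also active in muscle, had log2 fold changes of 0.21, -0.15 and -0.28. The part of muscle in these values was not tested.

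**Figure D3:**
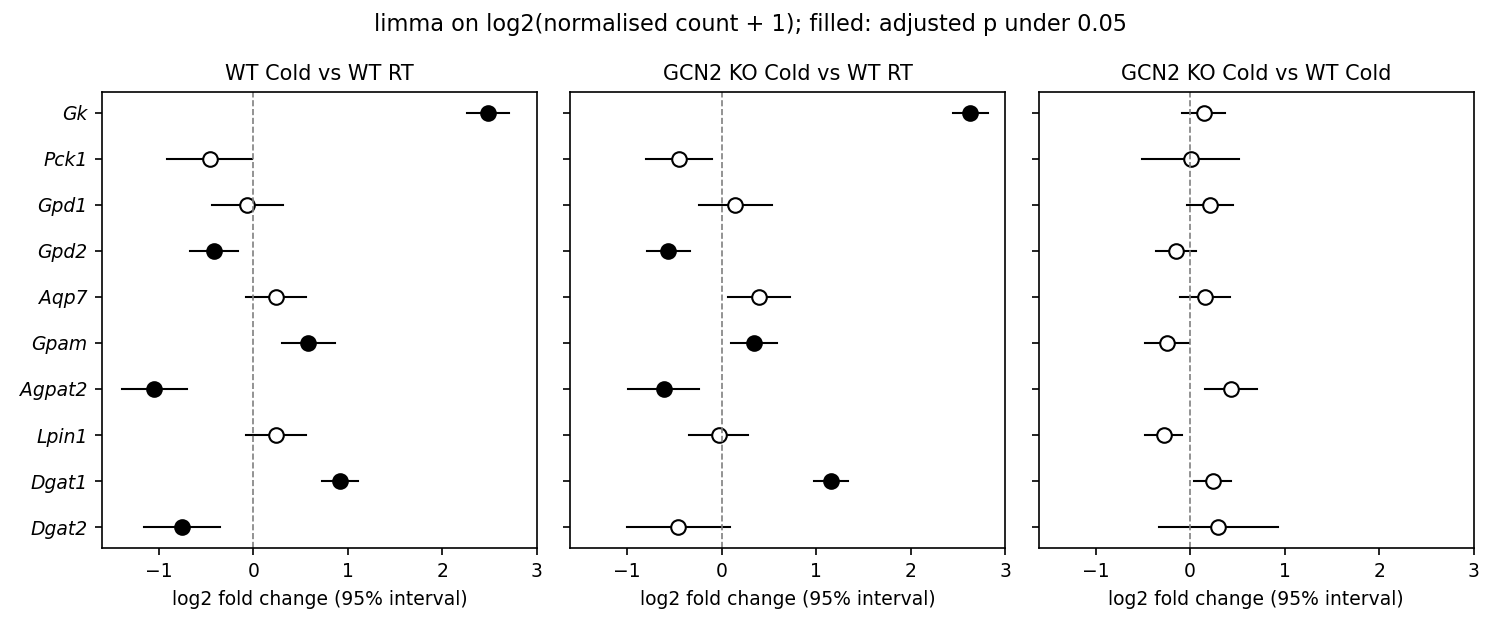
limma log2 fold change of log2(normalised count + 1) with its 95% interval for each of the 10 genes in the 3 comparisons, where filled points have an adjusted p under 0.05 and the dashed line is 0. For Gk the points lie at 2.49 and 2.63 against WT RT and at 0.14 between the cold groups, where no point is filled.

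Set against WT RT, with which both cold groups share the same 3 control libraries, GCN2 KO Cold had 5 of the 10 genes called by limma, against 34.2% of 16560 genes. Those higher were Gk, Gpam and Dgat1 (3 of 10, against 16.4% of all genes), and those lower were Gpd2 and Agpat2 (2 of 10, against 17.8%). Gk and Dgat1 passed an absolute log2 fold change of 1 as well (2 of 10, against 10.6%), but with CPM Dgat1 was at 0.96. The Gk rise was 6.19-fold (log2 fold change 2.63, SE 0.08, limma adjusted p = 2.17e-06) and the Dgat1 rise 2.24-fold (1.16, SE 0.08, limma adjusted p = 9.81e-05). Gpd2 changed by -0.57 (SE 0.10, limma adjusted p = 0.00344) and Agpat2 by -0.61 (SE 0.16, limma adjusted p = 0.0209), the latter with an adjusted p of 0.072, 0.0696 or 0.064 without WT RT B, WT RT C or GCN2 KO Cold C. Gpam, at 0.34 (SE 0.11, limma adjusted p = 0.0366), was at 0.14 with CPM (limma adjusted p = 0.259), and its call was also lost without WT RT A, WT RT B, GCN2 KO Cold A or GCN2 KO Cold B, with an adjusted p of up to 0.118. With CPM, the calls over all genes split into 1486 higher and 4820 lower instead of 2713 and 2944.

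The other 5 genes did not pass against WT RT in limma. Pck1 had a log2 fold change of -0.45 (limma adjusted p = 0.0505) and was called by DESeq2 (adjusted p = 0.0114), by edgeR (adjusted p = 0.0306) and in limma without GCN2 KO Cold C (adjusted p = 0.0318). In limma it was also called with CPM (-0.66, adjusted p = 0.00949), with all 3 groups in 1 fit (adjusted p = 0.0205) and among genes with a mean of at least 50 (adjusted p = 0.0451). Aqp7 had 0.40 (limma adjusted p = 0.0622, DESeq2 adjusted p = 0.041), and without GCN2 KO Cold A its limma adjusted p was 0.0456. Dgat2 had -0.46 (limma adjusted p = 0.17), and -0.69 without GCN2 KO Cold B (limma adjusted p = 0.0425). Its groups overlapped in normalised counts but not in CPM. Gpd1 had 0.14 with the size factors and -0.06 with CPM, and Lpin1 had -0.03, which was 0.13 without WT RT C.

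Spread between mice differed among the genes. The coefficient of variation over the 3 libraries of a group was at most 33.8% (Dgat2 in GCN2 KO Cold) and at least 1.53% (Gpd1 in GCN2 KO Cold). Dgat2 varied by 12.9% in WT RT and 24.8% in WT Cold, and Pck1 by 27.0% in WT Cold. Gk varied by 4.58%, 13.0% and 4.17% in WT RT, WT Cold and GCN2 KO Cold, so its rise was many times its spread. Dgat1 varied by 2.85% in WT RT.

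Levels between genes were compared as CPM per kilobase of exon (RPKM). In WT RT the order was Gpd1 (2296 ± 399, SD, n = 3), Pck1 (1122 ± 129), Agpat2 (773 ± 143), Dgat2 (319 ± 41.1), Gpd2 (152 ± 11.1), Dgat1 (62.1 ± 1.77), Gpam (46.8 ± 4.57), Aqp7 (38.7 ± 6.38), Lpin1 (38.4 ± 6.23) and Gk (24.5 ± 1.12). Neighbours in this order had ranges that did not overlap, except Gpam with Aqp7 and Aqp7 with Lpin1. Glycerol kinase was thus the lowest of the 10 transcripts at room temperature.

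In WT Cold, Gk had 130.4 ± 17 RPKM, behind Gpd1 (2057 ± 199), Pck1 (783 ± 212), Agpat2 (349.9 ± 33) and Dgat2 (180.5 ± 44.7). Next came Dgat1 (111 ± 10.3), Gpd2 (107 ± 11.7), Gpam (66.3 ± 7.68), Aqp7 (42.8 ± 4.74) and Lpin1 (42.5 ± 1.72). From Dgat2 down to Gpd2 each neighbour overlapped the next, and so did Aqp7 and Lpin1. The order of means in GCN2 KO Cold was the same, with Gk at 132 ± 5.5, Agpat2 at 437 ± 61.7, Dgat2 at 209 ± 70.7 and Dgat1 at 121 ± 6.85 RPKM. There Gpd2 (88.9 ± 4.08) lay clear of Dgat1, and Lpin1 (32.4 ± 2.25) clear of Aqp7 (44.1 ± 5.23).

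**Figure D4:**
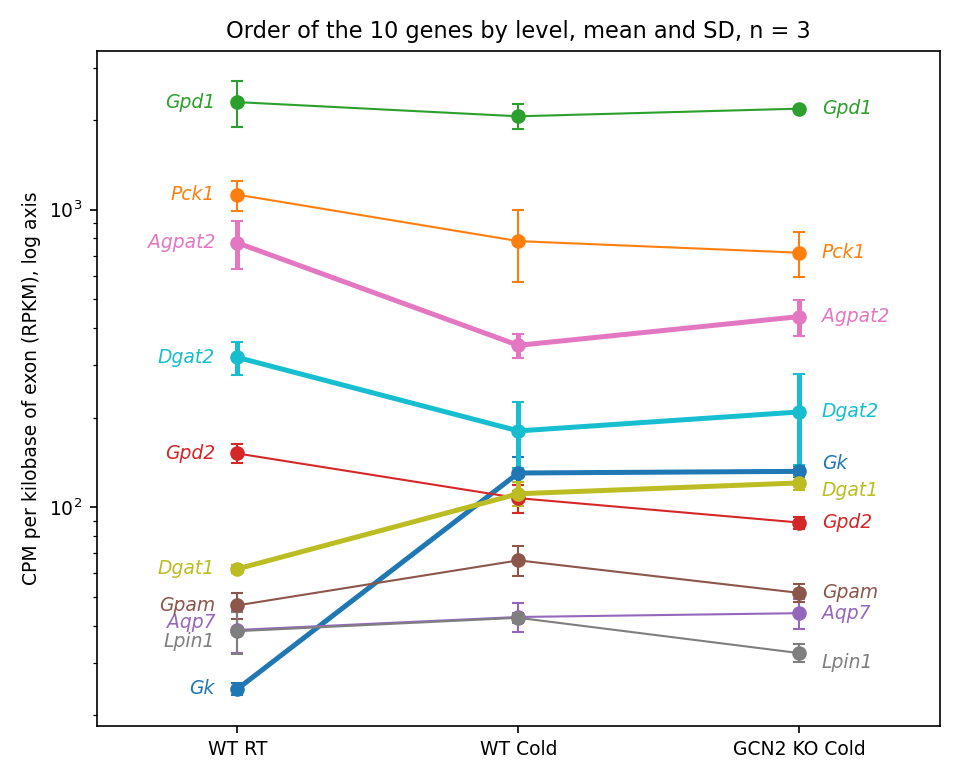
Mean level with SD (n = 3) of the 10 genes in CPM per kilobase of exon (RPKM), on a log axis, in WT RT, WT Cold and GCN2 KO Cold, with thicker lines for Gk, Agpat2, Dgat1 and Dgat2. Gk goes from 24.5 in WT RT, the lowest of the 10, to 130.4 in WT Cold, and is at 132 in GCN2 KO Cold.

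The 10 genes sit among 50 others of the same pathway that the tables list for this tissue, in lists written by step. In WT Cold vs WT RT 12 of these 50 were higher and 5 lower by limma, against 13.6% and 14.1% of all genes, with a median log2 fold change of 0.11. For glycerol 3-phosphate supply, 2 of 8 others fell: Pcx (pyruvate carboxylase, log2 fold change -0.45) and Gpd1l (a relative of Gpd1, -0.70). Of the aquaglyceroporins, neither Aqp9 nor Aqp11 was called. All 3 tested glycerol-3-phosphate acyltransferases rose: beside Gpam, these were the endoplasmic reticulum enzymes Gpat3 (log2 fold change 1.59, limma adjusted p = 0.000311) and Gpat4 (0.73, limma adjusted p = 0.000918).

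At the lysophosphatidate step, where Agpat2 fell in WT Cold, 3 of the 6 other listed genes rose, namely Agpat5 (log2 fold change 0.38), Lclat1 (0.72) and Abhd5 (0.44), a lipase co-activator, and 3 were not called (Agpat1, Agpat3 and Agpat4), with values from 0.10 to 0.46. Among the lipins, which are the enzymes of the phosphatidate phosphatase step here, Lpin3 rose 2.37-fold (log2 fold change 1.25), while Lpin1 and Lpin2 (-0.18) were not called. The list of that step also holds Ctdnep1, a protein phosphatase that acts on lipin, which rose (0.59), and its regulatory subunit Cnep1r1 (0.03), which was not called. At the last step Mogat1, a monoacylglycerol acyltransferase, fell (-0.74) with Dgat2, and Mogat2 was not called (-0.45).

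Beyond the core steps, Acsl1 (0.30) and Acsl4 (0.45), which activate fatty acids to acyl-CoA, rose, with the other 3 Acsl genes not called. Of 5 lipid droplet genes, Fitm2, which helps droplets form, rose (0.67), and Pnpla3, a droplet-associated acylhydrolase, fell by 2.39 on the log2 scale (limma adjusted p = 0.000796), the largest change among the 50. Of 16 genes that lead phosphatidate or diacylglycerol to phospholipid, Selenoi (0.67) and Dgke (0.47) rose, Dgkd fell (-0.76), and 13 were not called.

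In GCN2 KO Cold vs WT Cold, 0 of the 50 were called by limma, against 0.405% of all genes, with a median log2 fold change of -0.00. Their values ran from -1.57 (Acsl6, limma adjusted p = 0.117) to 0.90 (Pnpla3, limma adjusted p = 0.201), and the lowest limma adjusted p values were those of Tpi1 (0.40, adjusted p = 0.0784) and Gpat3 (-0.86, adjusted p = 0.0824). In GCN2 KO Cold vs WT RT 16 were higher and 7 lower, against 16.4% and 17.8% of all genes. The calls of the 50 in each comparison rest on the size factors and all libraries, and no other setting is given for them. CPM would move the median log2 fold change of all genes by -0.20 here. Agpat1 and Bscl2 were close to the threshold (limma adjusted p = 0.0457 and 0.0381). For backbone supply, Tpi1 (0.56) and Mdh1 (0.50) rose and Pck2 (-0.57), Pcx (-0.61) and Gpd1l (-0.70) fell. Gpat3 (0.72), Gpat4 (0.83), Agpat1 (0.25), Agpat5 (0.59), Lclat1 (0.87), Abhd5 (0.43) and Lpin3 (1.02) rose at the acylation and phosphatase steps, and Ctdnep1 (0.75), which acts on lipin and not on phosphatidate, also rose. Acsl4 (0.39), Bscl2 (0.25), Fitm2 (0.61), Pcyt2 (0.44), Selenoi (0.81) and Dgke (0.46) also rose, and Fitm1 (-0.98), Pnpla3 (-1.49), Dgkd (-0.88) and Dgkz (-0.49) fell. Fitm1 is chiefly a gene of muscle, whose markers were lowest in these libraries, and the part of muscle in its fall was not tested.

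**Figure D5:**
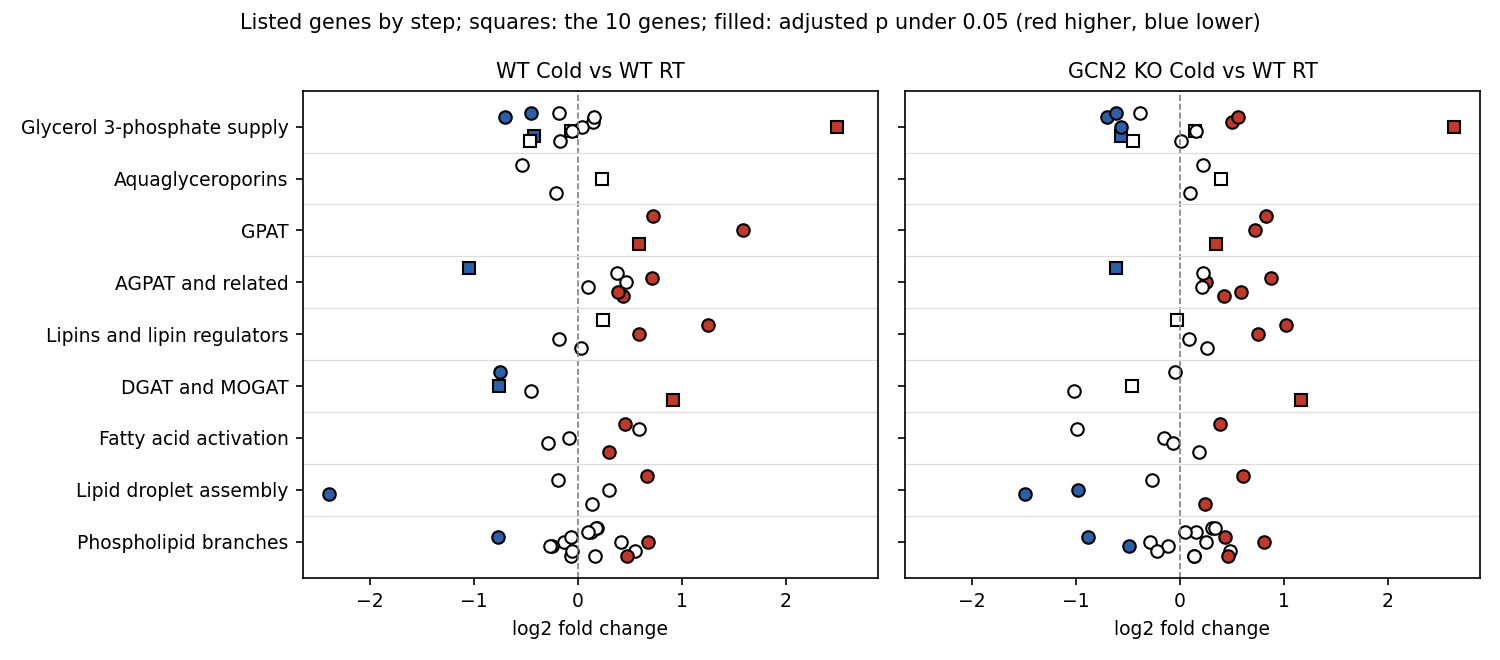
limma log2 fold change of the listed genes by step of the pathway, for WT Cold vs WT RT (left) and GCN2 KO Cold vs WT RT (right), with squares for the 10 genes, circles for the others, and filled symbols for an adjusted p under 0.05 (red higher, blue lower). All 3 GPAT genes are filled red in both panels, and Agpat2 is the blue square at the AGPAT step, at -1.05 and -0.61.

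By the root mean square difference of centred log2(CPM + 1) over the 9 libraries, among 10524 genes with a mean of at least 5 CPM, the genes most like Gk were Gm826 (0.13), Noct (0.15) and Nnmt (0.20). Noct went from a mean of 51.9 CPM in WT RT to 314 in WT Cold, with 286 in GCN2 KO Cold, and Nnmt from 51.8 to 321 and 353. Most like Agpat2 were Fabp5 (0.09), a fatty acid binding protein, Atp8a1 (0.12) and Hebp2 (0.13). Fabp5 went from 143 CPM in WT RT to 57.5 in WT Cold, with 74.6 in GCN2 KO Cold. Most like Dgat1 were Car13, Dnajc25 and Eif1, each at 0.08. The 9 libraries share the group structure, so likeness describes a shared pattern over 3 groups.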

How the data were processed

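Brown adipose tissue RNA of 9 mice was sequenced. Per the labels and methods, poly(A) RNA libraries (NEBNext Ultra II) were sequenced in pairs of reads, and reads were trimmed (Trimmomatic 0.36), aligned to GRCm39 (STAR 2.5.2b), counted in exons (featureCounts, Subread 1.5.2) and compared with DESeq2. The authors deposited 1 table per comparison, holding for each gene and library a signal: reads over the size factor of that library, estimated per table. Log2 fold changes and p-values from the authors, also deposited there, were not used. Columns carry library codes, and the tables that list a code set its group. Columns of other samples numbered 0. Whole reads were recovered for 100% of values, within 0.0001 reads.

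The main test was limma 3.58.1 (R 4.3.3) with a mean-variance trend on log2(value + 1). DESeq2 1.42.0 and edgeR 4.0.16 (quasi-likelihood, TMM) on recovered reads were alternatives, with another scaling, pseudocount, filter, threshold and fit, and each library left out. The fitting code was tested on simulated data. Exon lengths and gene positions are from GENCODE M21 on GRCm38 (16900 of 16937 identifiers found). Because the files hold no coordinates, none was converted. All 10 genes were named, with every listed pathway gene that was called and the 3 genes most like each of the 3 genes with the largest change. The 10 genes were proposed as a pathway, and the lists and tests written, with earlier results of these data known. Aqp3, Gpat2 and Dgat2l6 were not among the listed genes.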

Additional observations from a re-analysis of the deposited data

How the results depend on the processing

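Requiring an absolute log2 fold change over 1 as well left 1357 genes called in WT Cold vs WT RT, 42 between the cold groups and 1754 in GCN2 KO Cold vs WT RT, and 2, 0 and 2 of the 10. With each library left out in turn, in that order 2907 to 5679, 3 to 24 and 4220 to 5261 genes were called, and 4 to 7, 0 to 0 and 3 to 5 of the 10. The WT Cold vs WT RT count moved by over 1.5 times without WT RT B (3067), WT Cold A (3054) or WT Cold B (2907), and the GCN2 KO Cold vs WT Cold count of 66 without any of its 6 libraries. For GCN2 KO Cold vs WT Cold, DESeq2 called 526 genes and 1 of the 10, edgeR 44 genes, limma without the trend 6, and limma on CPM with all 3 groups in 1 fit 427. Without the trend, 3 of the 10 were called in GCN2 KO Cold vs WT RT, and in WT Cold vs WT RT the adjusted p was 0.0712 for Gpd2 and 0.0501 for Dgat2. The cause of these shifts was not tested. Of the 150 alternative values of the 10 genes in each comparison, 135, 141 and 123 kept their direction and their side of the threshold, and none that was called changed sign. No paired analysis was possible because the columns carry no replicate numbers. Depth set no limit for the 10 genes, with at least 2784 reads each in every library. With 3 mice a group, the spread between mice sets the precision, sex is not given per library, and library codes differ between WT RT and the cold groups.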
